A study of Mus musculus with 2 samples.

Results

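Semaphorins are secreted, membrane-spanning or lipid-anchored guidance proteins, plexins are their receptors, and neuropilins are co-receptors of the secreted class 3 semaphorins. Their genes were followed in the mesenchymal cells of the embryonic mouse coronal suture, the joint between the frontal and parietal bones. Members were the genes carrying a class 3 to 7 semaphorin, a plexin or a neuropilin symbol in both deposited gene lists, matched by Ensembl identifier. There were 30 members among 27514 genes common to both lists, made up of 19 semaphorins, 9 plexins and 2 neuropilins.

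Cells came from wildtype C57/BL6 embryos at the embryonic days E15.5 and E17.5, with no other genotype or treatment. Each stage was deposited as 1 sample, which is called a library here. The E15.5 library held cells of 10 pooled sutures, dissociated with collagenase II and dispase and depleted of dead cells. The E17.5 library held cells of 16 sutures from 2 litters, which were digested with collagenase IV in 3 batches before FACS sorting. By the authors' account, these batches were sorted and prepared for sequencing separately, and they are deposited together. The E17.5 barcodes carried the suffixes 1 to 3, which the labels do not assign to batches. Stage, enzyme, sorting, embryos and sequencing site therefore cannot be told apart. The authors' 15 cluster labels were used, for osteogenic cells (OG1 to OG4), proliferating osteogenic cells (PO1 and PO2), ectocranial mesenchyme above the bones (EC1 to EC4), ligament-like cells (LIG) and meningeal layers below them (MG1 to MG4). The 5335 labelled E15.5 cells held 48607817 unique molecular identifiers (UMIs, counts of captured transcripts), and the 6830 labelled E17.5 cells held 92585034. The smallest clusters were MG1 with 28 cells and PO2 with 35 cells at E15.5, and 42 barcode sequences occurred among the labelled cells of both libraries. Markers of OG3, OG4, PO2, EC1, EC2, EC4, LIG, MG3 and MG4 were highest in the cluster of that label in both libraries, such as Ifitm5, an osteoblast membrane protein, in OG4. Markers of OG1, PO1, EC3, MG1 and MG2 were above the other cells but in part highest elsewhere. In OG2, Sp7, a transcription factor of committed osteoblasts, was at 4.14 counts per 1000000 UMIs (CPM) at E15.5 and at 172 CPM at E17.5. Sp7 also differed in PO1 (1.96 and 180 CPM), PO2 (10.3 and 156 CPM) and OG1 (15.1 and 91.9 CPM). The OG2 marker Lef1, a transcription factor of Wnt signalling, was at 73.4 and 11.6 CPM in OG2, and at E17.5 it was highest in PO2.

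In bone, semaphorins and plexins are known as messengers between osteoblasts, osteoclasts, vessels and nerves. Sema4D is made by osteoclasts and acts on osteoblasts through plexin-B1, and Sema3A acts on bone cells through Nrp1 and A-type plexins. Class 3 ligands need a neuropilin for most of their signalling, whereas classes 4 to 7 bind plexins directly, and neuropilins also bind vascular endothelial growth factors (VEGF).

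Levels are given as CPM, the UMIs of a gene per 1000000 UMIs of a cluster, with exact Poisson 95% intervals in brackets. A fold compares a cluster with all other labelled cells of its library, with an exact conditional binomial 95% interval. Both kinds of interval cover counting error only. No test between clusters or stages was run, because the clusters were defined on the same cells and E15.5 is 1 library without a replicate. UMIs counted at the 3′ end do not scale with transcript length. Capture was not calibrated between genes, so CPM set side by side between genes are approximate. Members with at least 50 UMIs in each library were compared, and 24 of the 30 passed.

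Of these 24 members, 10 (41.7%) were at least 2-fold above the other labelled cells in the same cluster in both libraries, against 20.7% of all 12149 genes compared. These were Sema3b, Sema3d, Sema3e, Sema3f, Sema4b, Sema4d, Sema4g, Plxna2, Plxnb1 and Plxnc1, in 13 pairs of a member and a cluster. OG4, the osteoblast cluster marked by Ifitm5 and Dmp1, held 4 of the pairs, EC2, MG1 and MG4 held 2 each, and OG1, EC1 and LIG 1 each. In comparison, 3.02% of all genes compared met the rule in OG4, 2.42% in EC2, 1.45% in MG1, 3.07% in MG4, 0.296% in OG1, 0.683% in EC1 and 0.757% in LIG. With at least 200 UMIs in each library, 4 of 16 members met it, against 16.4% of all genes, and with a 1.5-fold limit 19 of 24, against 44.0%. PO1 and PO2 held none of the members, and 3.96% and 3.05% of all genes met the rule there. The cluster with the highest level was the same in both libraries for 9 members (37.5%), against 32.0% of all genes, so the members were close to the background in this respect. In the heatmap of all members, Nrp1, Nrp2, Sema3a, Sema3d, Sema4c, Sema5a, Plxna1 and Plxnb2 were above 5 CPM in every cluster of both libraries, whereas Sema3b, Sema4d and Plxnb1 stood out in OG4.

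**Figure D1:**
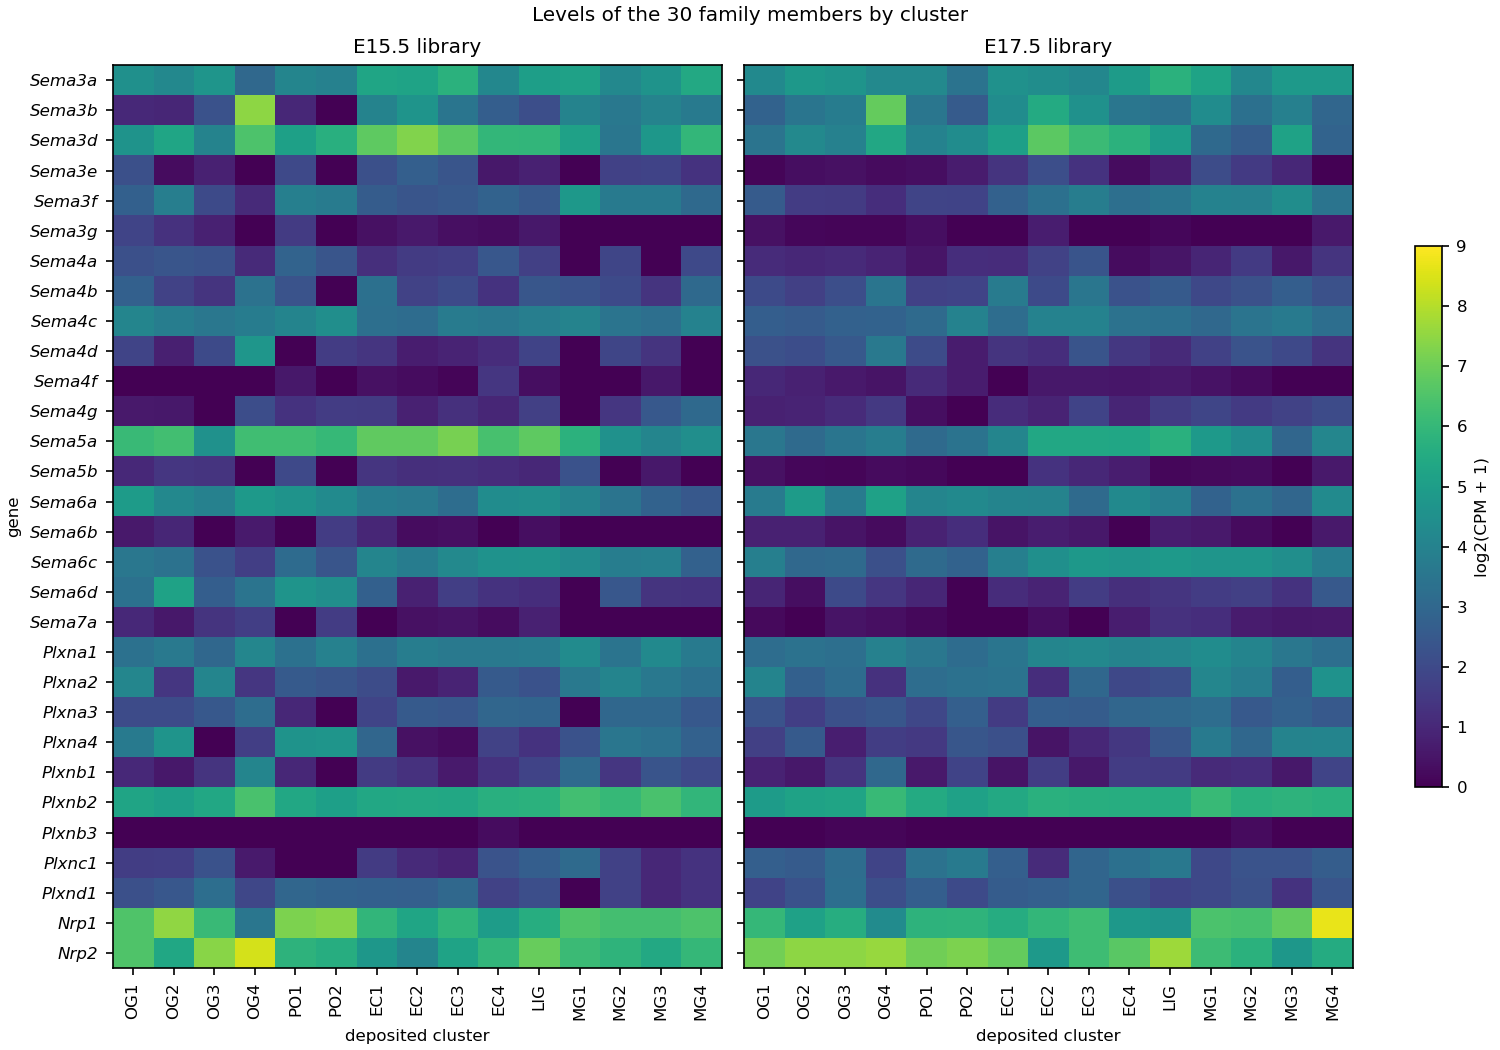
Level of each of the 30 members (rows) in each of the 15 deposited clusters (columns) in the E15.5 and the E17.5 library, on a log2(CPM + 1) colour scale. Sema3b is bright in OG4 in both libraries (175 and 117 CPM), Nrp1 is brightest in OG2 at E15.5 (181 CPM) and in MG4 at E17.5 (412 CPM), and Plxnb3 is dark throughout.

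Promoters of 2 pairs of members called in the same cluster are printed here so that they can be compared. They are windows of 300 bases around the annotated transcription start, most of each window lying before it, 5′ to 3′ (RefSeq, GRCm38.p6). Plxnb1 and Sema4d, a receptor and its ligand, shared OG4, where Sema3b and Sema4b, also called there, are named only, and Sema3d and Sema3e shared EC2 and lie on the same strand of chromosome 5, at 12383385 to 12588948 and 14025276 to 14256689. Capitals mark TGTGGT, the core of RUNX sites, and CTTTGA, the core of TCF/LEF sites, on either strand. Of 32850 mouse promoter entries of this length, 16.8% held TGTGGT and 16% CTTTGA. Sema4d has 3 promoter entries, of which the furthest upstream and the single one with a match are shown. The annotated Sema4d gene begins further upstream, at position 51793747. The Sema3d window ends before the position given above for the start of its gene, 12383385.
Plxnb1, chr9:109095186-109095485, plus strand: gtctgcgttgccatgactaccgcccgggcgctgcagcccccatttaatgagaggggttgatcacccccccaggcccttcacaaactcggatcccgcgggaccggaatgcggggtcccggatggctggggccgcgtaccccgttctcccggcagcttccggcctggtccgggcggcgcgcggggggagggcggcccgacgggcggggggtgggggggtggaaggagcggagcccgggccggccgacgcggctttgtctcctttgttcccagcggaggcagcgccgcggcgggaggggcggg
Sema4d, chr13:51756634-51756933, minus strand: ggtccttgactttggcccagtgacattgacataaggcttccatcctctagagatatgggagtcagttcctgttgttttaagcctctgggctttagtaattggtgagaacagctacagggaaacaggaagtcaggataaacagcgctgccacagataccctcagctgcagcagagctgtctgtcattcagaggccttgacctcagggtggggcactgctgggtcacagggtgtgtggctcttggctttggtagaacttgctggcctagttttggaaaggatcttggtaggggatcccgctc
Sema4d, chr13:51748761-51749060, minus strand: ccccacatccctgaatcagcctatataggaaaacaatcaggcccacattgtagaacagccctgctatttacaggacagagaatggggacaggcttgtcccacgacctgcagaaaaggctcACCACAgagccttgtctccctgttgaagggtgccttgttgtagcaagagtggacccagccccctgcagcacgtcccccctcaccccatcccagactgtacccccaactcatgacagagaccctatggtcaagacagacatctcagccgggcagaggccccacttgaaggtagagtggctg
Sema3d, chr5:12382916-12383215, plus strand: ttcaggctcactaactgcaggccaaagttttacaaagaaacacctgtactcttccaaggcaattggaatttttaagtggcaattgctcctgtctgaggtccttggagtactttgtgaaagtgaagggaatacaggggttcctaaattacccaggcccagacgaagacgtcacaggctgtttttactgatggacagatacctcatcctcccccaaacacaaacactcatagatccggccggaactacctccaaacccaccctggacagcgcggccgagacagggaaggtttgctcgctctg
Sema3e, chr5:14025026-14025325, plus strand: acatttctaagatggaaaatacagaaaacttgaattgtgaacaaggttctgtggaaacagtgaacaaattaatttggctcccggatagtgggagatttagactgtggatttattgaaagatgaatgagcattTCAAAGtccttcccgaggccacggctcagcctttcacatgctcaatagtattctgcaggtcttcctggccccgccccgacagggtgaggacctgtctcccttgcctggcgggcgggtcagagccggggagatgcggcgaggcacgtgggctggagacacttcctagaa
One of the Sema4d promoters held 1 RUNX match and the Sema3e promoter 1 TCF/LEF match, and the windows of Plxnb1 and Sema3d held neither. Entries were found for 25 members, with a RUNX match in Sema6d, Sema3a, Sema4d, Plxnb3 and Plxna3 and a TCF/LEF match in Nrp2, Sema6d and Sema3e.

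Among the secreted class 3 ligands, Sema3b had the clearest leading cluster. Its OG4 level was 175 CPM (156 to 196, 317 UMIs) in the E15.5 library, and 117 CPM (111 to 124, 1231 UMIs) in the E17.5 library. This was 16.3-fold (14.1 to 18.8) and 8.17-fold (7.53 to 8.85) above the other labelled cells. The next cluster was EC2 in both libraries, at 24.0 and 44.3 CPM, and the ratio of OG4 to EC2 was 7.30 (6.13 to 8.71) and 2.65 (2.35 to 2.99). The other osteogenic clusters were low, as OG1 stood at 1.04 and 6.19 CPM and OG2 at 0.975 and 10.2 CPM. At E17.5 the OG4 level was 104, 113 and 126 CPM in barcode suffixes 1, 2 and 3, so each part of the library was above every other cluster of the whole library.

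Sema3d and Sema3e led in EC2, the ectocranial cluster marked by Pi16 and Dpt. Sema3d was abundant in EC2, with 155 CPM (147 to 163) in the E15.5 library and 105 CPM (97.7 to 112) in the E17.5 library, which was 2.41-fold and 4.61-fold above the other cells. All ectocranial clusters had it, and the second was EC1 at 109 CPM at E15.5 and EC3 at 70.1 CPM at E17.5, with ratios of 1.43 (1.27 to 1.61) and 1.49 (1.25 to 1.8) to them. The lowest level was in MG2, at 10.4 and 5.17 CPM. Sema3e, a ligand that binds plexin-D1 without a neuropilin, was rare, with 52 UMIs in EC2 at E15.5 (5.65 CPM, 2.5-fold, 1.74 to 3.56) and 28 at E17.5 (3.52 CPM, 5.42-fold, 3.31 to 8.69). Its EC2 level was not separable from the second cluster, since the ratio was 1.35 (0.885 to 2.05) to EC3 at E15.5 and 1.08 (0.575 to 2.07) to MG1 at E17.5.

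Sema3f was at 26.7 CPM in MG1 at E15.5, on 7 UMIs (10.7 to 55.1), and at 14.7 CPM (11.7 to 18.3) at E17.5, or 4.05-fold and 2.5-fold above the other cells. MG3 was higher at E17.5, at 20.1 CPM (14.4 to 27.3), and the interval of its ratio to MG1 held 1. Sema3a met the rule in no cluster. It was highest in EC3 at E15.5, at 52.5 CPM, and in LIG at E17.5, at 53.3 CPM, where it was 2.40-fold above the other cells (2.17 to 2.66) after 1.01-fold (0.835 to 1.21) at E15.5. In OG4 it was the lowest of all clusters at E15.5, at 7.18 CPM, and at 18.0 CPM at E17.5. Sema3g had 28 and 16 UMIs in the libraries and was not compared.

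Class 4 ligands span the membrane, and Sema4d was the member of this class with the clearest cluster. Its OG4 level was 25.4 CPM (18.6 to 33.9, 46 UMIs) in the E15.5 library, and 11.3 CPM (9.39 to 13.6, 119 UMIs) in the E17.5 library. OG3 followed at 3.09 and 4.74 CPM, and the ratio of OG4 to OG3 was 8.22 (3.00 to 31.5) and 2.39 (1.74 to 3.32). The fold over all other cells was 20.2 (13.4 to 30.2) at E15.5 and 3.93 (3.12 to 4.92) at E17.5, where the suffixes gave 4.17, 3.36 and 4.27. Osteoclast-like cells without a deposited label held more Sema4d, and osteoclast markers were therefore read in OG4. Atp6v0d2, a subunit of the osteoclast proton pump, was at 0 there at E15.5 and at 0.476 CPM at E17.5, against 281 and 325 CPM in osteoclast-like cells, and the 5 osteoclast markers summed to 318 and 319 CPM in OG4, within the range of the other clusters (157 to 473 and 214 to 663 CPM). With the 56 and 208 OG4 cells that had a UMI of Acp5, Atp6v0d2 or Ocstamp left out, and all such cells elsewhere, the fold of Sema4d in OG4 was 24.3 (14.9 to 39.3) and 4.04 (3.00 to 5.39). Most of the marker sum in OG4 came from Ctsk, at 274 and 289 CPM. Acp5 was found in every cluster of both libraries, so a UMI of it does not mark osteoclast RNA by itself. The part of osteoclast RNA in the OG4 level was not tested.

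Sema4b met the rule in OG4 and in EC1. It was at 9.40 CPM (5.47 to 15) and 10.2 CPM (8.35 to 12.3) in OG4, and at 9.10 CPM (6.05 to 13.2) and 12.3 CPM (8.33 to 17.4) in EC1, with folds from 2.70 to 2.88. Sema4g met it in MG4 on 5 and 6 UMIs only, at 7.52 and 3.16 CPM, and the interval of its E17.5 fold (2.43, 0.873 to 5.44) held 1. Sema4c was present in all clusters, from 8.14 to 20.6 CPM at E15.5 and from 5.04 to 14.8 CPM at E17.5. Sema4a stayed at or below 6.37 CPM. Sema4f, with 14 and 53 UMIs, was not compared.

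Among the transmembrane ligands of class 5 and class 6, Sema5a, which carries thrombospondin repeats, was the most abundant. It was highest in EC3 at E15.5, at 142 CPM (135 to 149), and in LIG at E17.5, at 50.8 CPM (46.3 to 55.7). Sema6a was highest in OG1 (29.6 CPM) at E15.5 and in OG4 (34.6 CPM) at E17.5, and its OG4 folds of 1.98 and 2.36 lay just outside and just inside the limit. Sema6c was highest in LIG in both libraries, at 23.8 and 27.5 CPM, but its folds were 1.72 and 2.05, and EC4 at 23.2 CPM and EC3 at 26.9 CPM were not separable from LIG. OG4 was the lowest cluster for Sema6c in both, at 2.21 and 3.62 CPM. Sema5b, Sema6b and the lipid-anchored Sema7a had at most 60 UMIs in a library and were not compared.

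Plxnb1, a receptor of Sema4D, was highest in OG4 of the 15 labelled clusters, like Sema4d. Its level was 16 CPM (10.7 to 23.0, 29 UMIs) in the E15.5 library and 7.24 CPM (5.71 to 9.06, 76 UMIs) in the E17.5 library, or 11.4-fold (7.08 to 17.8) and 5.61-fold (4.12 to 7.60) above the other cells. The second cluster was MG1 at 7.64 CPM at E15.5, from which OG4 was not separable (ratio 2.1, 0.531 to 18.2), and MG4 at 2.63 CPM at E17.5. By suffix the E17.5 fold was 1.88, 8.15 and 4.85, on 4, 41 and 31 UMIs. Plxnb2 was the most abundant plexin, ranging from 32.7 to 84.9 CPM at E15.5 and from 29.8 to 66.5 CPM at E17.5, and OG4 was second in both, at 83.4 and 66.3 CPM. Plxnb3 had 1 and 3 UMIs.

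**Figure D2:**
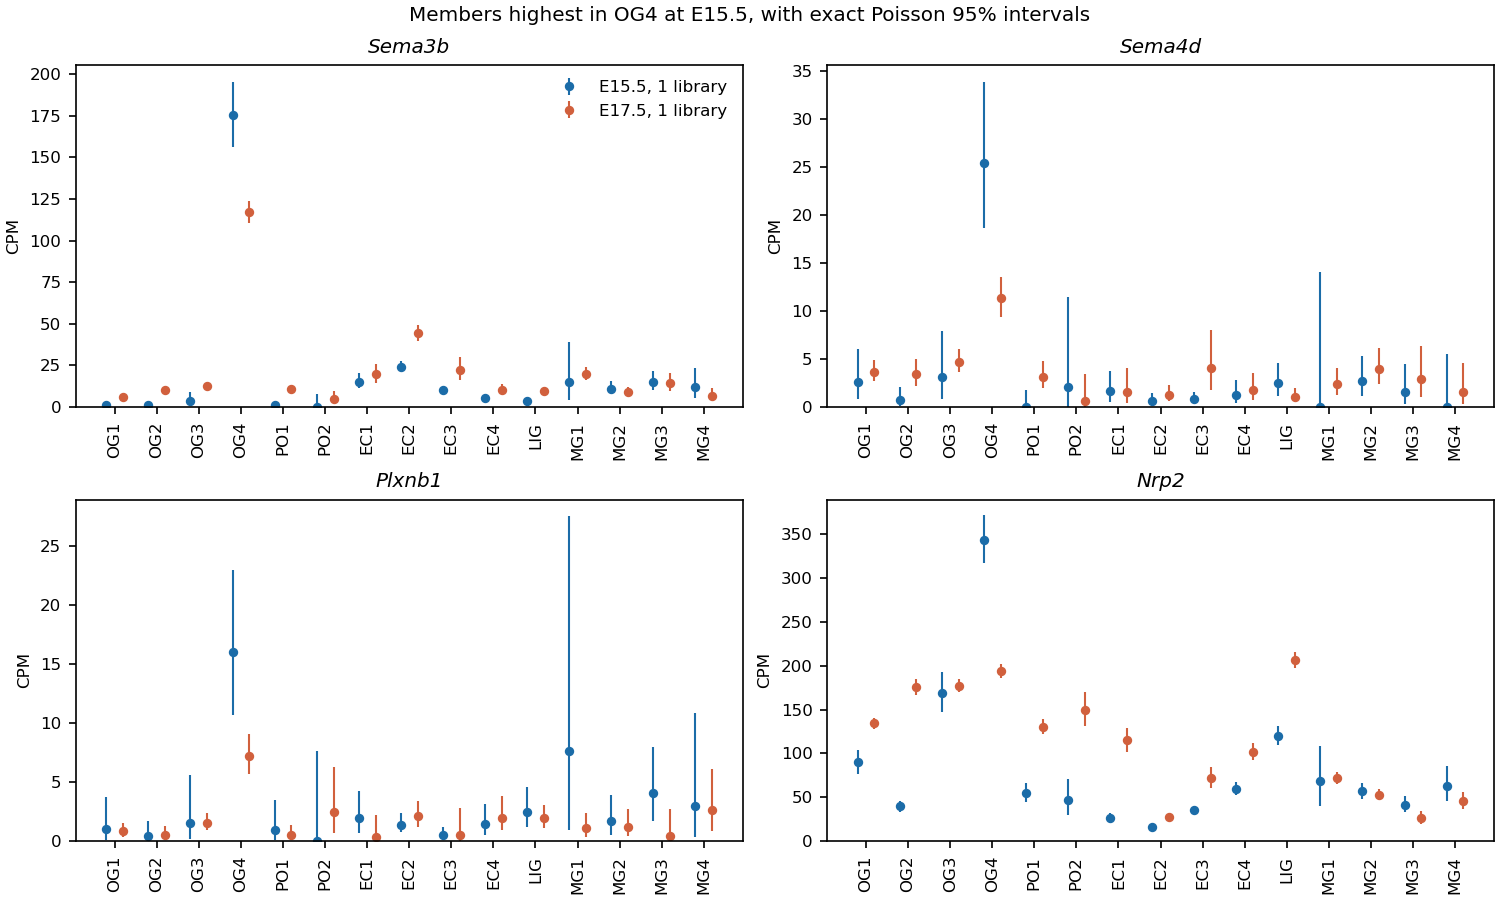
Level in CPM (vertical axis, from 0) of Sema3b, Sema4d, Plxnb1 and Nrp2 in each of the 15 clusters (horizontal axis), with blue points for E15.5 and orange points for E17.5 and bars for the exact Poisson 95% interval. OG4 is the highest cluster for Sema3b, Sema4d and Plxnb1 in both libraries, whereas Nrp2 is highest in OG4 at E15.5 (343 CPM) and about level in OG4 and LIG at E17.5 (194 and 206 CPM).

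Plxna2, a receptor used by class 3 complexes and by Sema6a, met the rule in OG1, MG1 and MG4. In OG1, an osteogenic cluster, the E15.5 library had 16.6 CPM (11.4 to 23.5) and the E17.5 library 15.7 CPM (13.6 to 18.1), 4.34-fold (2.88 to 6.35) and 2.33-fold (1.96 to 2.75) above the other cells. OG3 was not separable from OG1 at E15.5, with 16.2 CPM (ratio of OG1 to OG3 1.02, 0.573 to 1.87), and MG4 and MG1 were above OG1 at E17.5, with 23.2 and 16.7 CPM. The MG1 and MG4 values at E15.5 rested on 3 and 6 UMIs, and the intervals of these folds held 1. EC2, where Sema3d was highest, had 0.543 and 1.26 CPM of Plxna2. Over the 30 values of both libraries, Plxna2 and Sema3d had the most opposed pattern of any pair of members (Pearson r of log2(CPM + 1) = -0.81), a description over clusters that share libraries.

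Plxna4 was led by OG2, PO1 and PO2 at E15.5, at 24.4, 23.5 and 24.8 CPM, and by MG3 and MG4 at E17.5, at 15.2 and 15.8 CPM. Plxna1 was flat, from 6.96 to 19.1 CPM at E15.5 and from 8.03 to 19.6 CPM at E17.5, with MG1 highest in both. Plxna3 did not exceed 8.36 CPM. Plxnc1, the receptor of Sema7A, was 3.42-fold (2.02 to 5.58) and 2.05-fold (1.64 to 2.54) higher in LIG, at 5.52 and 11.3 CPM, although MG1 at E15.5 (7.64 CPM on few cells) and PO2 at E17.5 (11.7 CPM) were nominally above LIG. Plxnd1 was highest in OG3 in both libraries, at 8.50 and 8.54 CPM, and EC3 was not separable from it.

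The neuropilins were the most abundant receptors, with 3363 UMIs of Nrp1 and 2958 of Nrp2 in the E15.5 library, and 5310 and 12307 in the deeper E17.5 library. Over all labelled cells, Nrp1 was at 69.19 CPM at E15.5 and 57.35 CPM at E17.5, and Nrp2 at 60.85 and 132.9 CPM. The neuropilins parted along the osteogenic clusters. Nrp1 in OG4 had 10.5 CPM (6.32 to 16.4) in the E15.5 library and 19.2 CPM (16.6 to 22.0) in the E17.5 library, the lowest of the 15 clusters in both, while Nrp2 in OG4 was at 343 CPM (317 to 371) and 194 CPM (186 to 202). Of all neuropilin UMIs in OG4, Nrp1 gave 3.0% at E15.5 and 9.0% at E17.5. EC2 had the reverse, with 70.4% Nrp1 at E15.5 and 68.9% at E17.5.

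OG2 stood on opposite sides in the libraries. Nrp1 in OG2 had 181 CPM (168 to 195) in the E15.5 library and 34.3 CPM (30.4 to 38.6) in the E17.5 library, and Nrp2 was at 39.7 CPM (33.9 to 46.3) and 175 CPM (166 to 185). The Nrp1 share was thus 82.0% and 16.4%, and at E17.5 it was 13.1%, 16.2% and 17.7% in the suffixes. PO1 went from 73.1% to 29.6%, PO2 from 77.7% to 27.7% and EC1 from 69.6% to 28.7%. Sp7 moved with this in PO1, from 1.96 CPM at E15.5 to 180 CPM at E17.5, as it did in OG2, and the part of a different cell content under these labels was not tested. MG4, an inner meningeal layer, went the other way, from 58.4% to 90.0%, as Nrp1 was at 88.8 CPM (67.6 to 114) and 412 CPM (384 to 442). The E17.5 level in MG4 was 116 CPM in suffix 1, on 9 UMIs, and 453 and 395 CPM in suffixes 2 and 3. Endothelial-like and pericyte-like cells also held much Nrp1. The 5 endothelial markers (Cdh5, Pecam1, Cldn5, Emcn and Egfl7) summed to 134 CPM in MG4 at E17.5, the highest of the 15 clusters (12.1 to 103 CPM in the others), against 4396 CPM in endothelial-like cells, and Cdh5 and Egfl7, both at 60.5 CPM, gave most of it. At E15.5 this sum was 114 CPM in MG4, again the highest. In MG4 at E17.5, Pecam1, Cldn5 and Emcn were at 2.63, 1.05 and 8.95 CPM, against 609, 884 and 879 CPM in endothelial-like cells. Cdh5 was higher in MG3 than in MG4 at E17.5, at 81.3 CPM. The 5 pericyte markers summed to 52.1 CPM in MG4 at E17.5, within the range of the other clusters. The part of vessel cells in the Nrp1 level of MG4 was not tested.

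**Figure D3:**
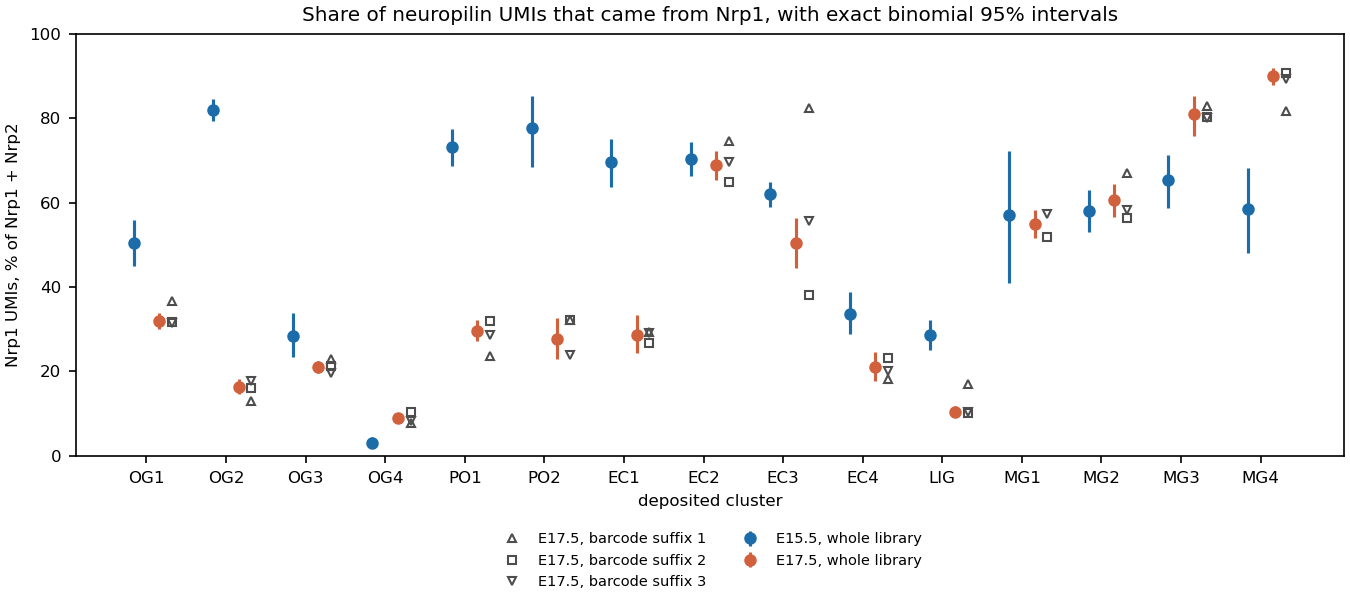
Nrp1 UMIs as a percent of Nrp1 and Nrp2 UMIs together (vertical axis) in each cluster, with exact binomial 95% intervals for the E15.5 library (blue) and the E17.5 library (orange) and open symbols for the 3 barcode suffixes at E17.5. OG4 lies at or under 9.0% in both libraries, OG2, PO1, PO2 and EC1 lie between 69.6% and 82.0% at E15.5 and at or under 29.6% at E17.5, and MG4 lies at 58.4% and 90.0%. EC3 varies between suffixes, from 38.1% to 82.4%.

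Levels between the stages were compared through the mean CPM over the 15 clusters, each weighted equally. The ratios also carry the difference in counting and gene lists between the matrices. Of the 24 members, 3 (12.5%) were at least 2-fold lower at E17.5, against 6.96% of all genes compared, and 1 was at least 2-fold higher, against 3.82%. The members lower at E17.5 numbered 5 (20.8%, against 7.42% of all genes) without the clusters under 100 cells, 5 (20.8%, against 8.37%) with barcode suffix 1 alone, and 1 of 16 (6.25%, against 5.02%) at 200 UMIs in each library. The median ratio of E17.5 to E15.5 was 0.947 for the members and 1.01 for all genes. Sema6d had the lowest ratio of the members compared (0.196), followed by Sema5a (0.304) and Sema4a (0.461, but 1.18 with each cell thinned to 3000 UMIs), and Plxnc1 had the highest (2.68). Sema3d and Sema3e, both at 0.535, lay just outside the limit.

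Sema6d, a ligand of plexin-A1 and plexin-A4, had 35.8 CPM (30.3 to 42.1, 147 UMIs) in OG2 at E15.5, but 0.252 CPM (0.0305 to 0.911, 2 UMIs) at E17.5. PO1 had 24.5 and 0.963 CPM, and PO2 had 20.6 CPM and then no UMI (0 to 2.28 CPM). Outside these clusters it was at most 9.95 CPM at E15.5 and 4.74 CPM at E17.5. The part of the label's different content, with Sp7 at 4.14 CPM in OG2 at E15.5, was not tested. Plxna4 had a like pattern, with OG2 at 24.4 CPM (19.8 to 29.7) and 4.92 CPM (3.5 to 6.72) and PO1 at 23.5 and 1.79 CPM.

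Sema5a was lower at E17.5 in 13 of the 15 clusters with intervals of the ratio below 1, and in OG2 it was at 77.3 CPM (69.0 to 86.3) and 7.69 CPM (5.88 to 9.88). The ectocranial clusters and LIG kept the higher values at E17.5, from 39.4 to 50.8 CPM in EC2, EC3, EC4 and LIG, but EC1 was at 16.2 CPM after 110 CPM. Sema3d was lower in 12 clusters and not separable in the other 3. Sema4a was lower in 6, from at most 6.37 CPM. Plxnc1 was higher in 8 clusters and lower in none. Sema3b was lower in OG4 and higher in 8 other clusters, so its mean ratio was 1.08. Nrp2 was higher in 9 clusters and lower in 2. All counts of clusters rest on counting error alone.

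**Figure D4:**
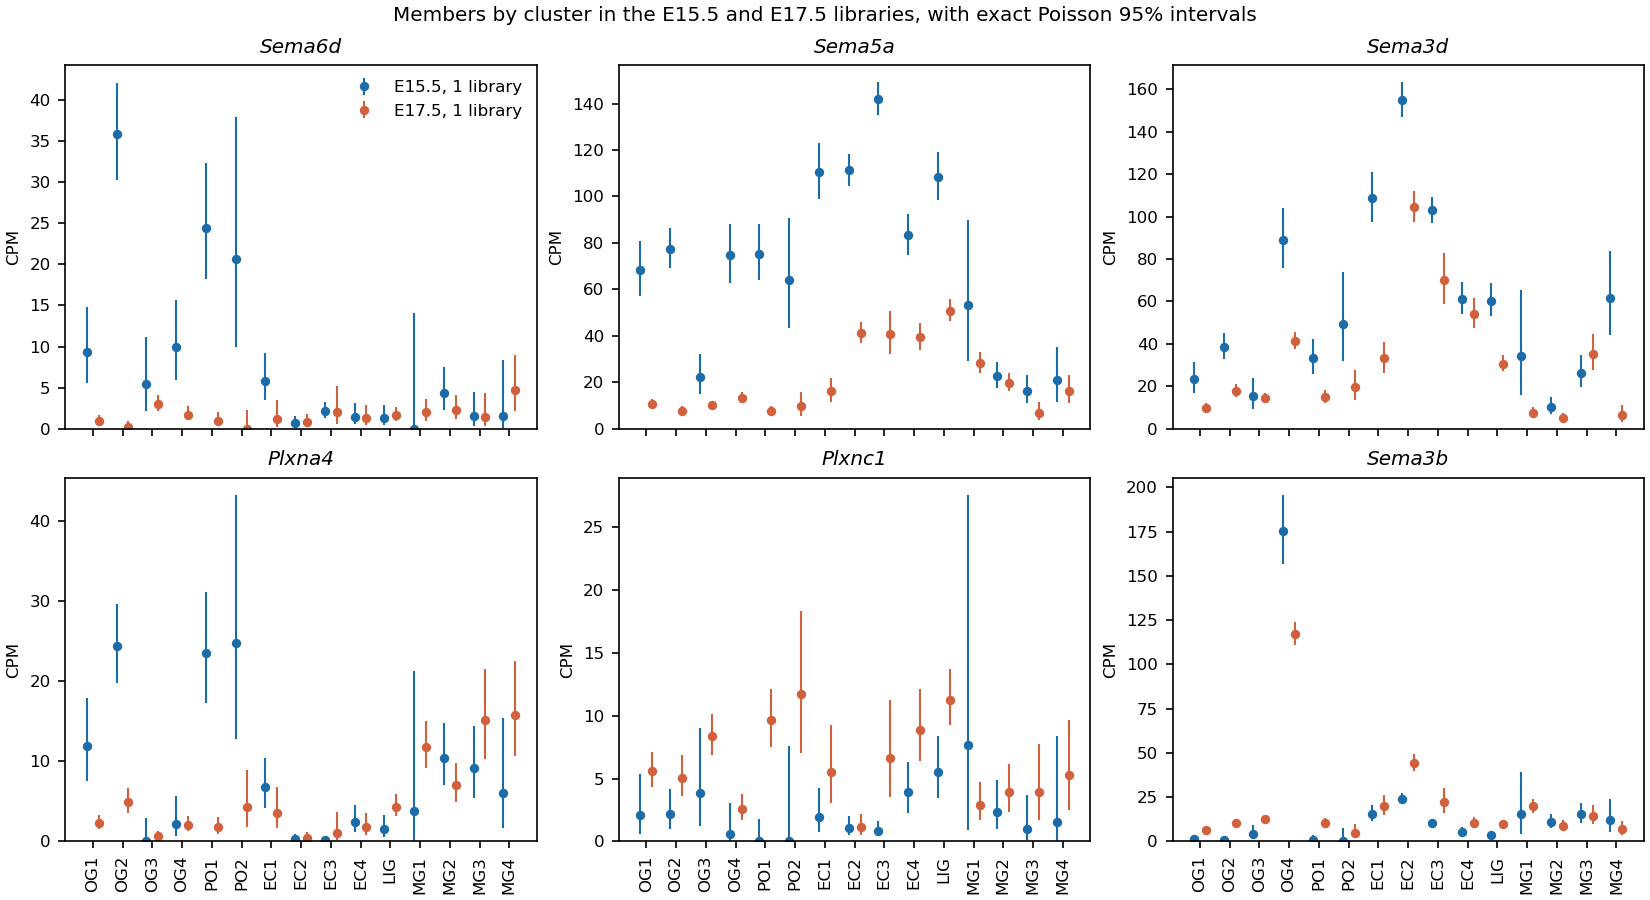
Level in CPM (vertical axes, from 0, each gene on its own scale) of 6 members in the 15 clusters (horizontal axis) at E15.5 (blue) and E17.5 (orange), with exact Poisson 95% intervals. Sema6d and Plxna4 are highest in OG2, PO1 and PO2 at E15.5 and low there at E17.5, Sema5a and Sema3d are lower at E17.5 in 13 and 12 clusters, Plxnc1 is higher in 8, and Sema3b keeps OG4 on top.

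Cells that passed the study's filters but had no deposited label numbered 2875 in the E15.5 and 1937 in the E17.5 library. They were clustered and named from markers, so the names were rebuilt here, and 1135 and 541 of them stayed unnamed. The named cells held members that the labelled clusters hardly had. Plxnd1, a receptor of vessel guidance, had 171 CPM (138 to 209) in endothelial-like cells at E15.5 (55 cells), and 189 CPM (168 to 212) at E17.5 (119 cells), against at most 8.54 CPM in any labelled cluster. Sema6a was at 67.9 and 86.6 CPM there, and Sema6d at 64.2 CPM (44.7 to 89.3) and 55.6 CPM (44.5 to 68.7), so the intervals of Sema6d overlapped between the libraries in these cells, unlike in OG2. Sema6d was also at 34.4 and 44.2 CPM in pericyte-like cells.

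Osteoclast-like cells (182 and 146) had 56.5 CPM of Sema4d (48.2 to 65.7) in the E15.5 library and 66.3 CPM (57.0 to 76.7) in the E17.5 library, above the 25.4 and 11.3 CPM of OG4, and they had 506 and 245 CPM of Nrp2. Sema3b, at 0.338 and 3.31 CPM, and Plxnb1, at 0.338 and 0.368 CPM, were low in them. Another E15.5 cluster of 56 cells held the osteoclast markers too but was led by antigen-presentation genes such as H2-Eb1 and H2-Ab1, so it was left unnamed, and its Sema4d was at 17.7 CPM (10.7 to 27.7). Pericyte-like cells had the highest levels of the rare Sema5b (9.24 and 18.5 CPM) and Sema7a (12.8 and 14 CPM) among the cell types named in both libraries. Mast-like cells had 23.6 CPM of Plxnc1 (17.6 to 30.9) in the E15.5 library and 29.8 CPM (12 to 61.3) in the E17.5 library, the latter on 7 UMIs. Plxnd1 was also above the labelled clusters in osteoclast-like cells, with 47.4 and 41.6 CPM. Plxnb1 was at 10.96 CPM (8.928 to 13.32) in chondrocyte-like cells at E15.5 and at 16.27 CPM (12.22 to 21.23) at E17.5. OG4 had 16.03 and 7.241 CPM of Plxnb1, so chondrocyte-like cells were above OG4 at E17.5 only. Photoreceptor-, pineal- or neuron-like cells, named at E17.5 only, had 15.32 CPM of Plxnb1 (9.819 to 22.8). Macrophage- or monocyte-like cells, led in part by chemokine genes such as Ccl3 and Ccl4, had 11.1 and 23.4 CPM of Sema4a. Glia-like cells were named at E17.5 only (32 cells) and had 32.8 CPM of Plxnb3 (16.4 to 58.7) on 11 UMIs and 131 CPM of Sema4c (95.4 to 176). The clustering saw all genes, so these levels describe the cells and test nothing.

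**Figure D5:**
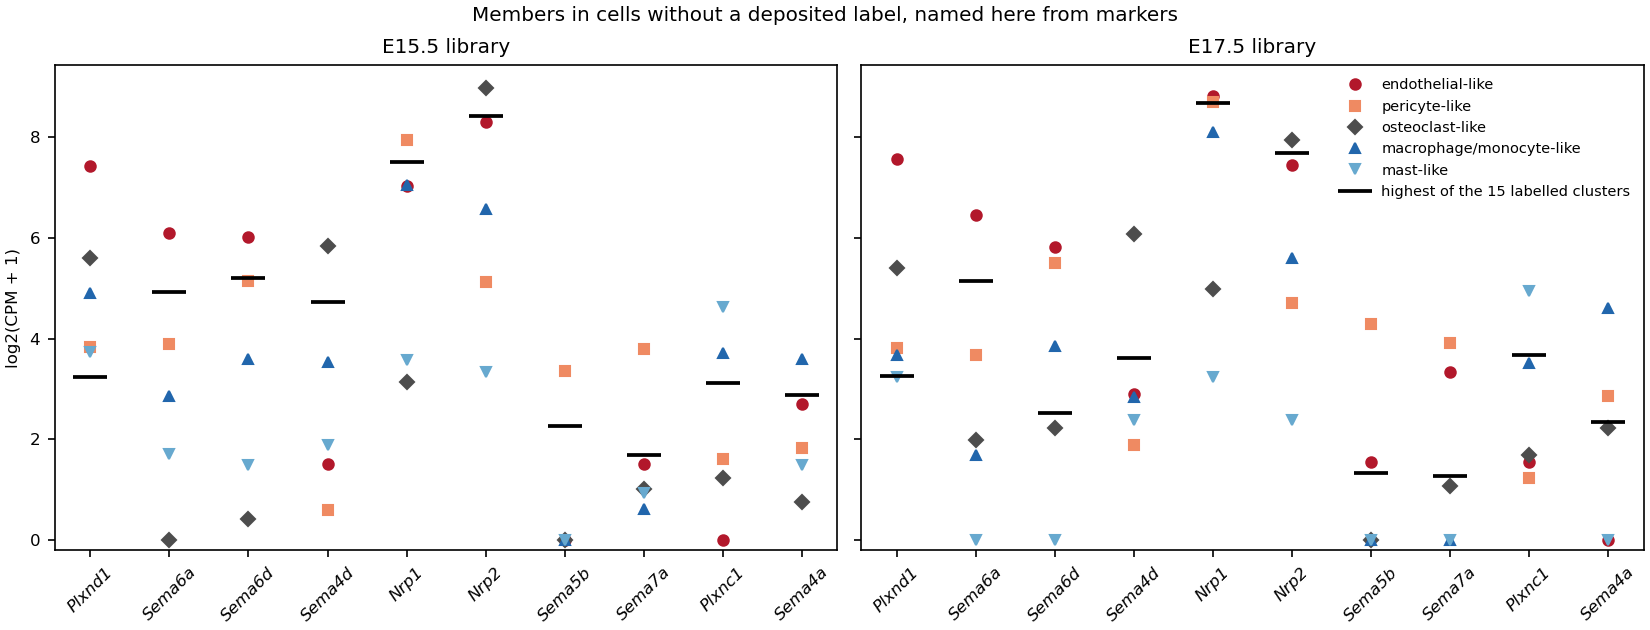
Level on a log2(CPM + 1) scale (vertical axis) of 10 members (horizontal axis) in cell types without a deposited label, named here from markers, with a black bar for the highest of the 15 labelled clusters. Plxnd1 in endothelial-like cells (171 and 189 CPM) and Sema4d in osteoclast-like cells (56.5 and 66.3 CPM) lie above the bar in both libraries.

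Genes that act with the family were counted in the same way, against the same 20.7% of all genes. Of 29 intracellular effectors compared, 8 (27.6%) were at least 2-fold higher in a cluster in both libraries. Mical3, a flavin monooxygenase of a family that acts downstream of plexins, and Farp2, an exchange factor that acts downstream of plexin-A receptors, both led in OG4. Mical3 was 14.8-fold and 4.62-fold higher there (100.0 and 34.8 CPM) and Farp2 7.46-fold and 3.66-fold (43.7 and 16.8 CPM). Mical2 led in MG3 (5.48-fold and 4.46-fold) and Tiam1, a Rac exchange factor, in EC4 (3.44-fold and 3.54-fold). Mical3 also met the rule in MG3, and Mical2 in MG4.

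Of 9 co-receptors and other binding partners compared, 2 (22.2%) met the rule. Chl1, a cell adhesion molecule that binds neuropilins, was 2.98-fold and 7.43-fold higher in EC3, and Met, a receptor tyrosine kinase that can associate with plexin-B1, was 2.21-fold and 5.22-fold higher in EC2. Chl1 also met the rule in EC2. Itga1 (1.97-fold and 1.85-fold in EC4) and Erbb2 (1.84-fold and 1.54-fold in MG1) were under the limit. Of 6 VEGF ligands and receptors compared, 2 (33.3%) met it. Pgf, a VEGF family ligand that also binds neuropilins, was 4.45-fold and 8.11-fold higher in MG3, and the receptor Flt1 was 2.81-fold and 7.52-fold higher in EC2. Pgf also met the rule in EC4, MG2 and MG4. Vegfd (1.47-fold and 3.59-fold in EC3) and Vegfc (1.42-fold and 3.66-fold in MG4) were over the limit at E17.5 only.

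For the 4 members with the highest smaller fold, the genes with the most similar pattern over the 30 cluster values were sought among all genes compared. Slc38a10 (r = 0.92), Amigo3 (0.91) and Gm15417 (0.91) were closest to Sema3b, and C130050O18Rik (0.86), Slc36a2 (0.84) and Smagp (0.83) to Sema4d. For Plxnb1 they were P4ha1 (0.77), Ssr4 (0.77) and Ganab (0.76), and for Sema4b they were Tmem181a (0.70), Slc2a12 (0.67) and Sbf1 (0.67). The values share libraries and cells, so no p was computed.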

How the data were processed

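Cells were captured with 10x Genomics Chromium 3′ v2 reagents. The authors deposited count matrices of UMIs per gene and barcode, without normalization, and a table of cluster labels whose cells they had filtered with Seurat 3.2.0. The submitters' processing notes name FastQC 0.11.7, MultiQC 0.9, Cell Ranger and the build mm10, and the E15.5 matrix header names version 3.1.0. The table named 5340 E15.5 cells, of which 5335 were in the matrix, and every one of these had fewer UMIs in the matrix than in the table (medians of 8510 and 11507), whereas the 6830 E17.5 cells were equal. Median depth was 12302 UMIs at E17.5. Depth per cluster is behind each interval. The E15.5 values have no replicate, and the E17.5 suffixes were not used as replicates.

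UMIs were summed per label and library with Python 3.11.15, numpy 2.4.6, scipy 1.17.1 and pandas 2.3.3. Genes had to have 50 UMIs in each library. Members and lists were chosen with earlier results of these data known. All members were named, and of the other lists at most 4 genes with the highest smaller fold. 1 family member is not reported here. Unlabelled cells with at least 1000 UMIs, 1000 genes, at most 7.5% mitochondrial and at most 3% of each globin class of UMIs were clustered with scanpy 1.11.5 (2000 variable genes, 30 components, 30 neighbours, resolution 1). A name needed 3 markers and 80% of its list at 2-fold over the other clusters, and the 80% was set after seeing the clusters, as was leaving 1 cluster unnamed for its leading genes. Doublets were kept, and an alternative left out cells whose Scrublet score reached the 94th percentile. Alternatives were other cell filters, thinning to 3000 UMIs, other normalizations, a 1.5-fold limit, other UMI limits, clusters left out and each suffix alone. Positions are from GENCODE vM21 (GRCm38). Folds, calls and intervals were run on simulated Poisson counts with known folds. These counts held counting error only, so they could not test the intervals against spread between cells, batches or embryos.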

Additional observations from a re-analysis of the deposited data

Results flagged for a closer look

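Members that were at least 2-fold higher in a cluster in 1 library and at most 0.5-fold in the other, with both intervals clear of 1, are given here because the direction differed between the stages. Sema6d in OG2 was at 8.91-fold (7.11 to 11.1) the level of the remaining cells in the E15.5 library and at 0.148-fold (0.0178 to 0.545) in the E17.5 library. Plxna4 in PO1 was 4.66-fold (3.34 to 6.38) and 0.468-fold (0.247 to 0.812). Sema3f in OG2 was 2.20-fold (1.62 to 2.95) and 0.296-fold (0.168 to 0.484), and in PO1 it was 2.14-fold (1.40 to 3.16) and 0.388-fold (0.232 to 0.611). The differences were not tested, since E15.5 is 1 library without a replicate. All of them lie in OG2 and PO1, where Sp7 was at 4.14 and 1.96 CPM at E15.5 and at 172 and 180 CPM at E17.5. Sp7 also differed in PO2 (10.3 and 156 CPM) and OG1 (15.1 and 91.9 CPM), which hold none of these members, and its part was not tested.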

How the results depend on the processing

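No paired analysis was possible because each stage has 1 deposited sample. The number of members at least 2-fold higher in a cluster was 10, in 13 pairs, and became 19 in 33 pairs at a 1.5-fold limit and 4 in 6 pairs with at least 200 UMIs in each library. The same limit of 200 UMIs gave 5 members with the same highest cluster in place of 9, 1 member 2-fold lower at E17.5 in place of 3, and 0 2-fold higher in place of 1, where fewer genes were compared. Of all genes, 5.02% were 2-fold lower and 2.34% were 2-fold higher at this limit. Members lower at E17.5 numbered 7 when 1.5-fold was enough, and those 2-fold lower numbered 5 each without clusters under 100 cells, with E17.5 barcode suffix 1 alone, and with no UMI limit. Members 2-fold higher numbered 2 with mean UMIs per cell (8.33%, against 14.9% of all genes). The cause was not tested. The remaining alternatives kept all 5 counts within 1.5 times. Directions turned in 2 values, the ratio of Sema4a, which was 1.18 with cells thinned to 3000 UMIs, and the fold of Sema4g in MG4 at E17.5, which was 0 in suffix 1 alone. Of 234 folds of the 10 members in their leading cluster under the alternatives, 226 stayed at or above 2. Requiring intervals above 1, added after seeing the data, kept 9 members in 10 pairs. These intervals were computed for members only, so no share over all genes stands beside this count. Leaving out cells with osteoclast marker UMIs was also added after seeing the data. Few UMIs limit Sema4g, Sema3e and the E15.5 values of MG1 and PO2, among others.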
